A study of Mus musculus with 8 samples.

Results

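The transcripts described here are the expressed autosomal long noncoding RNAs (lncRNAs) of the mouse neuroblastoma line N2a. They are the genes typed as lncRNA in the authors' deposited table that lie on chromosomes 1 to 19 and reach a sum of at least 400 reads over the 8 libraries. Names beginning with Snhg and the genes Zfas1, Gas5, Meg3, Rian, Mirg, Kcnq1ot1 and Airn were left out, which removed 14 genes. This gave 317 of the 49164 genes with counts, and of the 9214 autosomal lncRNA genes among them. Of the 317, 173 carry predicted-gene (Gm) names, 93 carry Rik names, 8 carry clone names, 42 carry other names and 1 has an identifier only. Members were chosen by their summed reads over both groups, so that sum is no finding. At its edge, Gm42764 and Gm43585 had 402 reads each and were in, and Gm50218 with 399 and Gm47815 with 398 were out.

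Nrsn2 OE was 4 libraries of N2a cells transiently transfected with Nrsn2, which encodes the stress-responsive vesicle protein neurensin-2, using the TransIT-X2 reagent and collected 24 hours later. Control was 4 libraries of the same line, and the labels do not say whether these cells received reagent or an empty vector. Whether replicates came from separate cultures is not stated either, so the p-values here speak of the spread among these 8 libraries, part of which may be technical. The study asked which genes respond when neurensin-2 is overexpressed.

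A lncRNA is a transcript with no recognised long reading frame, usually made by RNA polymerase II. Some act in the nucleus as scaffolds, some are made back to back with an mRNA from 1 shared start region, and some are carriers of small RNAs. In a carrier, a small nucleolar RNA (snoRNA) lies in an intron and is trimmed out after splicing, or a microRNA (miRNA) hairpin is cut out by the Microprocessor complex. The snoRNAs guide chemical modification of ribosomal RNA, and the small Cajal body RNAs (scaRNAs) do so for spliceosomal RNAs. PolyA libraries record the carrier RNA and not the small RNA.

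The start regions of members that carry a snoRNA are shown first because these members include some of the strongest and most abundant rises. Each line runs from 40 bases before to 20 bases from the annotated start (RefSeq, GRCm38.p6). Capitals mark a C followed by at least 4 pyrimidines (C or T) on the transcript's strand, searched from 10 bases before to 15 bases from the start. A pyrimidine run at the start is the known form of the terminal oligopyrimidine (TOP) RNAs, the class that holds the ribosomal protein mRNAs and many snoRNA carriers.
2410006H16Rik (chr11:62602837-62602896, plus strand): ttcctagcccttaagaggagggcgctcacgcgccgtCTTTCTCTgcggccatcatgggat
1110038B12Rik (chr17:34952449-34952508, minus strand): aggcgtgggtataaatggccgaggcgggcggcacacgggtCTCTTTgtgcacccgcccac
Rab26os (chr17:24528211-24528270, plus strand): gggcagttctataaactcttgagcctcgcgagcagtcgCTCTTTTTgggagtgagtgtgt
2700038G22Rik (chr5:23850557-23850616, plus strand): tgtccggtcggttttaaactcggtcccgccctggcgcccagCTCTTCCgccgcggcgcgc
AI506816 (chr5:23712648-23712707, minus strand): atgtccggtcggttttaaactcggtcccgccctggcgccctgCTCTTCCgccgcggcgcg
Dancr (chr5:74093020-74093079, plus strand): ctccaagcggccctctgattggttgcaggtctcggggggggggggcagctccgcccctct
Such a run was found in 5 of the 8 snoRNA or scaRNA carriers with a RefSeq start, in 61 of the 156 members with one and in 34.4% of all 27025 genes of the table. The carriers 2900076A07Rik and AA465934, in which no run was found, are not printed. Another start of 1110038B12Rik, with the same run, is not printed either. The 2 starts on chromosome 5 of 2700038G22Rik and AI506816 are near copies on opposite strands, with 58 of 59 aligned bases of the printed windows identical, against 232 of 299 (77.6%) over the whole window of the table. A match of letters is a description and does not show where transcription began in these cells.

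The miRNAs of members that were called different between the groups are shown as mature sequences (RefSeq, GRCm38.p6), with the seed, bases 2 to 8, in capitals. The seed is the stretch with which a miRNA pairs to its target mRNAs. Other arms, and let-7a-2 of Mir100hg, are not printed.
miR-137-3p, in Gm26871: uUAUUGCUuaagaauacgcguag
miR-100-5p, in Mir100hg: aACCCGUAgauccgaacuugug
miR-125b-5p, in Mir100hg: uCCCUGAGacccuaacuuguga
let-7b-5p, in Lncppara: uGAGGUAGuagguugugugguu
let-7c-5p, in Lncppara: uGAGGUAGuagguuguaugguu
miR-344-3p, in A230057D06Rik: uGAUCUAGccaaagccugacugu
miR-344c-3p, in A230057D06Rik: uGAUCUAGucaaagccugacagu
miR-344d-3p, in A230057D06Rik: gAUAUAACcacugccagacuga
miR-344e-3p, in A230057D06Rik: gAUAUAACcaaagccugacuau
miR-344h-3p, in A230057D06Rik: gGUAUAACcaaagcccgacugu
miR-344b-3p, in A230057D06Rik: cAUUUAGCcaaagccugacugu
miR-760-3p, in Gm17494: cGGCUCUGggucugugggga
The let-7b and let-7c arms share the seed GAGGUAG with the let-7a, let-7d and let-7f arms carried by 6720427I07Rik. Within the miR-344 cluster, miR-344 and miR-344c share the seed GAUCUAG, and miR-344d and miR-344e share AUAUAAC. All 29 named miRNA genes looked up for the members had an entry.

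Libraries held 15347255 to 21395096 counts. Levels are given as CPM, counts made comparable between libraries by TMM scaling, and a member is called when its adjusted p from edgeR's quasi-likelihood test over all genes is under 0.05. Nrsn2 itself had 147, 173, 156 and 170 CPM in Nrsn2 OE libraries, against 8.42, 8.53, 6.54 and 10.6 CPM in control libraries. No member shares a 31-base run with Nrsn2 transcripts in the GENCODE M21 annotation. All 8 sympathoadrenal markers read were at 1 CPM or more, and their sum was 356 to 383 CPM in Nrsn2 OE libraries and 358 to 398 CPM in control libraries. The 6 neuronal markers summed to 1131 to 1244 CPM in Nrsn2 OE libraries and 1533 to 1754 CPM in control libraries, and their part in the results below was not tested. None of 4 astrocyte markers reached 1 CPM.

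Among the 317 lncRNAs, 68 rose and 74 fell in Nrsn2 OE cells, which is 44.8% of members. The background over all 15187 genes tested was 35.4% called, with 18.6% higher and 16.8% lower. Over the 1277 lncRNA genes tested it was 30% of genes, and over 12221 protein-coding genes it was 36.8%. The backgrounds in this paragraph did not face the count rule that the members passed, and calls were more frequent where reads were many. Of the 80 members with the fewest summed reads, 11 rose and 16 fell. Of the 79 members with the most, 24 rose and 21 fell. Members and backgrounds were not matched in reads, so the differences between their shares are a description. The members' median log2 fold change was 0.00630, against -0.000879 over all genes tested. The count rule bears on the shares past 2-fold too. By more than 2-fold, 25 members (7.89%) rose, against 2.59% of all genes, and 3 members (0.946%) fell, against 1.4% of all genes. The 4 Nrsn2 OE libraries lay above all 4 control libraries for 66 members (20.8%, background 17.2%) and below them for 61 (19.2%, background 15.4%).

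Because the count rule takes the sum over both groups, a member can pass through 1 group alone. In 31 members the control libraries gave fewer than 200 of the reads, and in 13 members the Nrsn2 OE libraries did. Of the 273 members with at least 200 reads in each group, 47 rose and 63 fell. Past 2-fold, 12 of the 273 rose (4.40%) and 1 fell (0.366%). Of the 10795 tested genes with at least 200 reads in each group, 0.528% rose and 0.176% fell past 2-fold. The 273 and the 10795 share this minimum only. They were not matched in reads, so the difference is a description. The library kit does not mark strand, and where genes overlap their reads cannot be told apart. The 141 members whose span meets no other counted gene held 36 rises and 25 falls, with a median log2 fold change of 0.05.

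**Figure D1:**
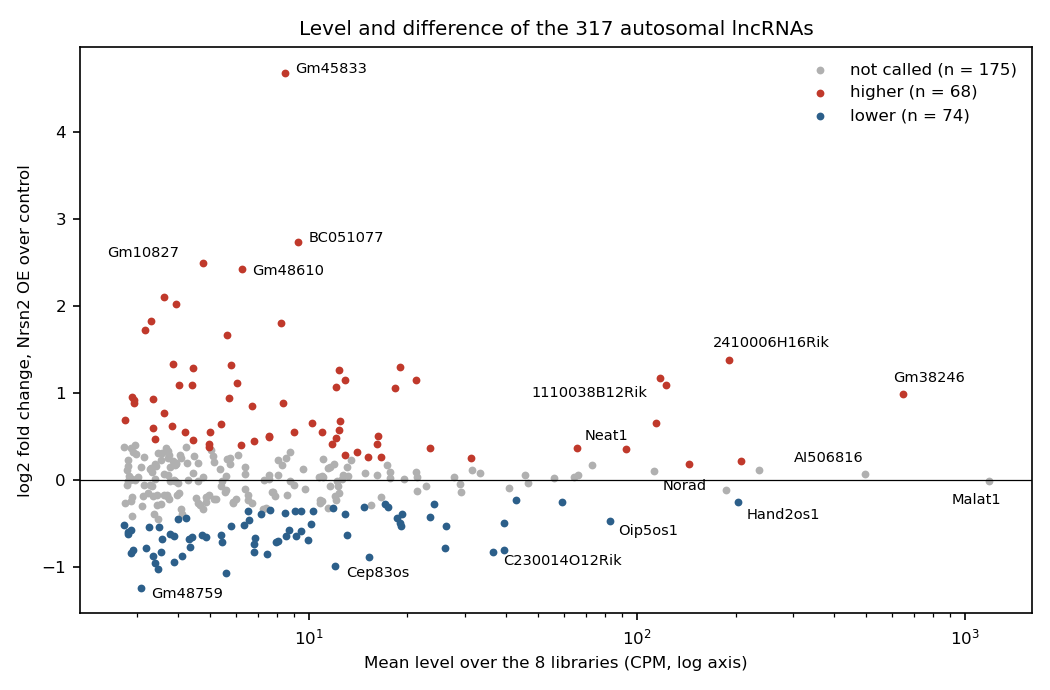
Each point is 1 of the 317 lncRNAs, with its mean level over the 8 libraries (CPM, log axis) across the page and its log2 fold change, Nrsn2 OE over control, up the page. Red points rose (68), blue points fell (74) and grey points were not called (175). Gm45833 stands alone at 4.68, and Malat1, the most abundant, lies at -0.01.

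Among members of at least 1 CPM whose groups did not overlap, the 10 largest rises were Gm45833, BC051077, Gm10827, Gm48610, Gm13075, Gm15564, Gm28496, Gm4419, Gm45184 and 2810405F17Rik, with log2 fold changes of 1.66 to 4.68. Of these, 7 overlap no other counted gene. The count rule sums both groups, so a member low in control can enter through its Nrsn2 OE reads alone, as Gm45833 did. This favours large differences in either direction, and the ranks are a description. Their functions are not described in the deposited table, and all 10 were under 10 CPM on average over the 8 libraries.

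Gm45833 (ENSMUSG00000110673, GRCm39 chromosome 8, 122393553 to 122400827, minus strand) had 17.7, 14.1, 16.9 and 16.5 CPM in Nrsn2 OE libraries, against 0.530, 0.750, 0.401 and 0.783 CPM in control libraries. Its lowest Nrsn2 OE library was far above its highest control library, with 1253 reads over the Nrsn2 OE libraries and 44 over the control libraries. The log2 fold change was 4.68 ± 0.17 (SE, adjusted p = 1.81e-12), against 4.23 ± 0.11 for Nrsn2. The nearest protein-coding gene, Zcchc14, lies 13913 bases away and had a log2 fold change of 0.31. Of the 31-base runs in Gm45833, 12% also occur in other genes.

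BC051077 (chromosome 5, 117450583 to 117453710, minus strand) was the only member of a list of interferon or inflammation lncRNAs. It had 24.2, 13.1, 12.7 and 14.5 CPM in Nrsn2 OE libraries, against 2.24, 2.65, 2.07 and 2.64 CPM in control libraries. The first Nrsn2 OE library was the highest, and the groups did not overlap. The log2 fold change was 2.73 ± 0.20 (adjusted p = 4.25e-08).

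Gm10827 (chromosome 10, 18110801 to 18121767, plus strand) had 11.6, 6.46, 6.96 and 7.44 CPM in Nrsn2 OE libraries, against 1.53, 1.38, 0.668 and 2.01 CPM in control libraries. It rose by 2.49 ± 0.24 on the log2 scale (adjusted p = 1.09e-06), while Ccdc28a, a coding gene that begins 55 bases away on the other strand, had 0.33 (adjusted p = 0.0565). Gm48610 (chromosome 12, 4622401 to 4626756, minus strand) had 13.5, 8.87, 9.46 and 10.5 CPM in Nrsn2 OE libraries, against 1.29, 2.08, 2.07 and 2.35 CPM in control libraries. Its log2 fold change was 2.42 ± 0.18 (adjusted p = 4.53e-08), and 39.8% of its 31-base runs occur in another gene, so that its reads may be divided with copies. In both lncRNAs the first Nrsn2 OE library was again the highest.

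Gm15564 lies on the opposite strand to Parp9, an interferon-induced gene whose protein works with the Dtx3l ubiquitin ligase. It had 10.8, 4.64, 4.68 and 5.34 CPM in Nrsn2 OE libraries, against 1.47, 2.54, 0.935 and 1.22 CPM in control libraries, a log2 fold change of 2.02 ± 0.30 (adjusted p = 5.93e-05). Parp9 rose too, by 0.86 on the log2 scale (adjusted p = 5.38e-05), and since the genes overlap by 5854 bases their reads cannot be told apart. Gm4419, which meets the mRNA gene of the signalling adaptor 14-3-3 theta (Ywhaq) over 315 bases, had 9.74 to 17.1 CPM in Nrsn2 OE libraries and 2.47 to 4.90 CPM in control libraries. Its log2 fold change was 1.80 ± 0.18 (adjusted p = 1.75e-06), against 0.03 for Ywhaq.

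The members Gm13075, 2810405F17Rik and Gm45184 overlapped no other counted gene. Gm13075, of whose 31-base runs 29.2% also occur in other genes, had 4.50 to 8.26 CPM in Nrsn2 OE libraries and 1.06 to 1.73 CPM in control libraries (log2 fold change 2.10 ± 0.22, adjusted p = 1.84e-06). 2810405F17Rik, which shares no 31-base run with another gene, had 6.86 to 9.86 CPM in Nrsn2 OE libraries and 2.30 to 3.00 CPM in control libraries (1.66 ± 0.15, adjusted p = 5.89e-07). Gm45184 had 3.64 to 7.08 CPM in Nrsn2 OE libraries and 0.942 to 2.71 CPM in control libraries (1.72 ± 0.28, adjusted p = 0.000157).

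By the same rule the 10 largest falls were smaller, with log2 fold changes of -1.24 to -0.84, in Gm48759, I730030J21Rik, Gm29237, Cep83os, Gm43066, Gm10544, Gm47243, Gm16153, B230209E15Rik and Gm16185. Of these, 2 overlap no other counted gene, Gm48759 and I730030J21Rik. Gm48759 (chromosome 10, 9472216 to 9475167, plus strand) had 0.948, 1.82, 2.23 and 2.31 CPM in Nrsn2 OE libraries, against 5.89, 4.27, 3.74 and 3.48 CPM in control libraries (log2 fold change -1.24 ± 0.23, adjusted p = 0.000571). The first Nrsn2 OE library was the lowest and the groups did not overlap. I730030J21Rik had 2.79 to 4.52 CPM in Nrsn2 OE libraries and 5.47 to 11.4 CPM in control libraries (-1.07 ± 0.20, adjusted p = 0.000582). Gm29237 lies wholly opposite Sptbn1, a spectrin gene at -0.03, and had 1.76 to 2.70 CPM in Nrsn2 OE libraries and 3.86 to 5.53 CPM in control libraries (-1.02 ± 0.18, adjusted p = 0.000383).

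Cep83os (chromosome 10, 94506887 to 94524438, minus strand) starts back to back with Cep83, which encodes a protein of centriole appendages, with 78 bases between the genes. It had 8.37, 8.37, 8.05 and 7.55 CPM in Nrsn2 OE libraries, against 14.7, 15.2, 16.3 and 18 CPM in control libraries. The groups were widely apart and each group was tight, and the log2 fold change was -0.99 ± 0.10 (adjusted p = 1.75e-06). Cep83 itself fell by 0.28 on the log2 scale (adjusted p = 0.00362). Gm47243 had 9.15 to 11.9 CPM in Nrsn2 OE libraries and 18.4 to 20.7 CPM in control libraries (log2 fold change -0.88 ± 0.10, adjusted p = 3.81e-06).

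**Figure D2:**
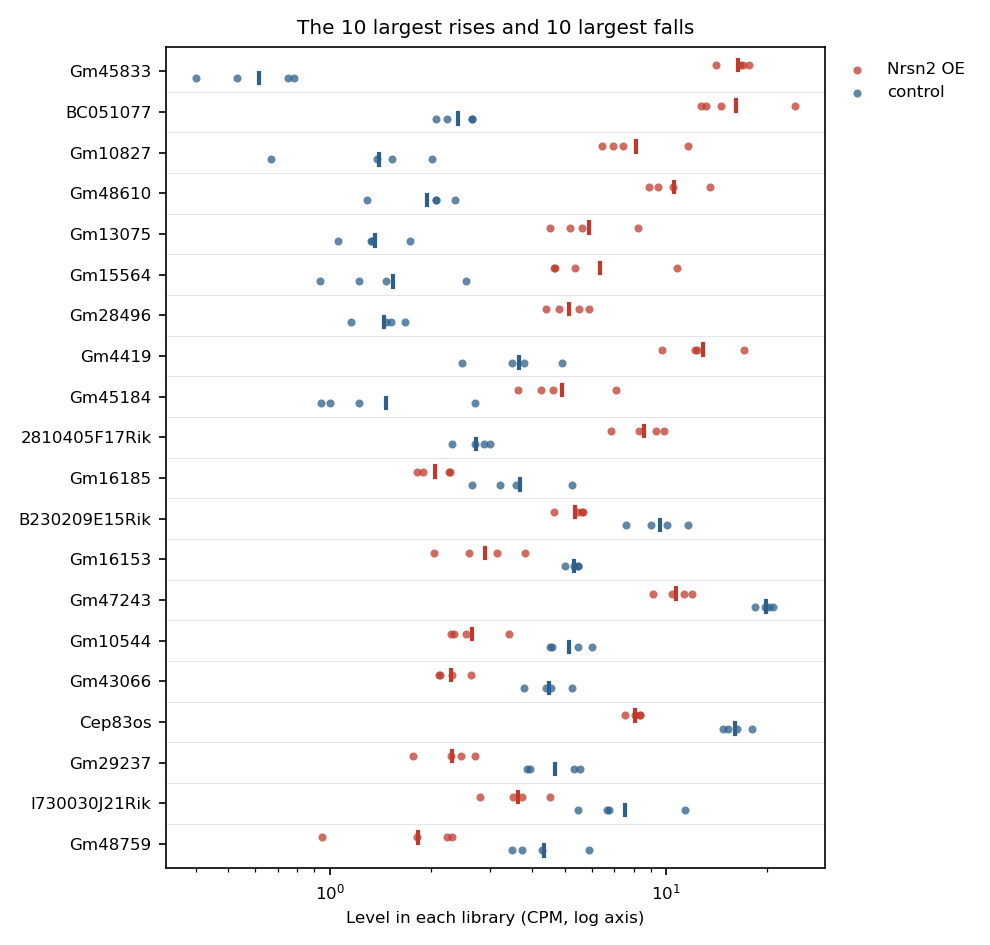
Level in each library (CPM, log axis) of the 10 largest rises (upper rows) and the 10 largest falls (lower rows), with the 4 Nrsn2 OE libraries in red above the 4 control libraries in blue and short bars at the group means. No row shows an overlap of the groups, which the rule for these genes required.

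Carriers of snoRNAs or scaRNAs were described as a group after their values had been seen, so their count is a description only. By the deposited positions, 12 members hold such a gene whole and on the same strand. Of the 12, 7 rose and 0 fell at an adjusted p under 0.05 in edgeR (18.6% and 16.8% over all genes tested), with 0 falls also at an unadjusted p under 0.05 and in DESeq2, and the other 5 had positive log2 fold changes, the smallest 0.07. The median log2 fold change was 0.89, and without the first Nrsn2 OE library the same count of 7 passed. The count rule sums both groups, so a carrier low in control, such as Gm28496, could enter through its Nrsn2 OE reads. One low in Nrsn2 OE could enter through its control reads. The rule thus favours both rises and falls in such a count. The carriers 2410006H16Rik and 1110038B12Rik were far above the rule in both groups.

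2410006H16Rik (chromosome 11, 62493703 to 62495633, plus strand) carries Snord49a, Snord49b and Snord65. It had 274, 260, 278 and 294 CPM in Nrsn2 OE libraries, against 74.2, 102, 125 and 124 CPM in control libraries. Every Nrsn2 OE library was more than 2-fold above every control library, and the log2 fold change was 1.38 ± 0.11 (adjusted p = 1.68e-07). 1110038B12Rik (chromosome 17, 35169214 to 35171447, minus strand), with Snord52, had 190, 153, 157 and 153 CPM in Nrsn2 OE libraries, against 72.2, 76.7, 73.9 and 67.3 CPM in control libraries. Its log2 fold change was 1.17 ± 0.08 (adjusted p = 7.40e-09). Both are among the more abundant members, and neither shares its span with another counted gene.

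The remaining rises among carriers were at lower levels. Gm28496, with Snord88a and Snord88c, had 4.41 to 5.91 CPM in Nrsn2 OE libraries and 1.15 to 1.67 CPM in control libraries (log2 fold change 1.83 ± 0.18, adjusted p = 1.34e-06). Rab26os, with Snord60, had a log2 fold change of 1.09 ± 0.20 (adjusted p = 0.000445), and it lies opposite Rab26, a vesicle GTPase gene at 0.23 (adjusted p = 0.443). Epb41l4aos rose by 0.93 ± 0.20 (adjusted p = 0.00134). Dancr, which carries Snora26 and is known for restraining differentiation of human progenitor cells, had 9.65, 7.37, 8.94 and 8.70 CPM in Nrsn2 OE libraries, against 5.47, 4.90, 4.14 and 4.65 CPM in control libraries (log2 fold change 0.85 ± 0.13, adjusted p = 9.86e-05).

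The carriers on chromosome 5 whose printed starts are alike had unlike values. 2700038G22Rik, with Snord93, had 19.9, 13.3, 16.2 and 15.9 CPM in Nrsn2 OE libraries, against 9.06, 7.03, 8.34 and 6.85 CPM in control libraries (log2 fold change 1.06 ± 0.13, adjusted p = 9.32e-06). AI506816 had 544, 512, 479 and 492 CPM in Nrsn2 OE libraries, against 524, 502, 460 and 450 CPM in control libraries (0.07 ± 0.07, adjusted p = 0.469). Its groups overlapped. The other carriers not called were 2900076A07Rik, Gm15832, Gm29170 and AA465934, at log2 fold changes of 0.14 to 0.29.

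**Figure D3:**
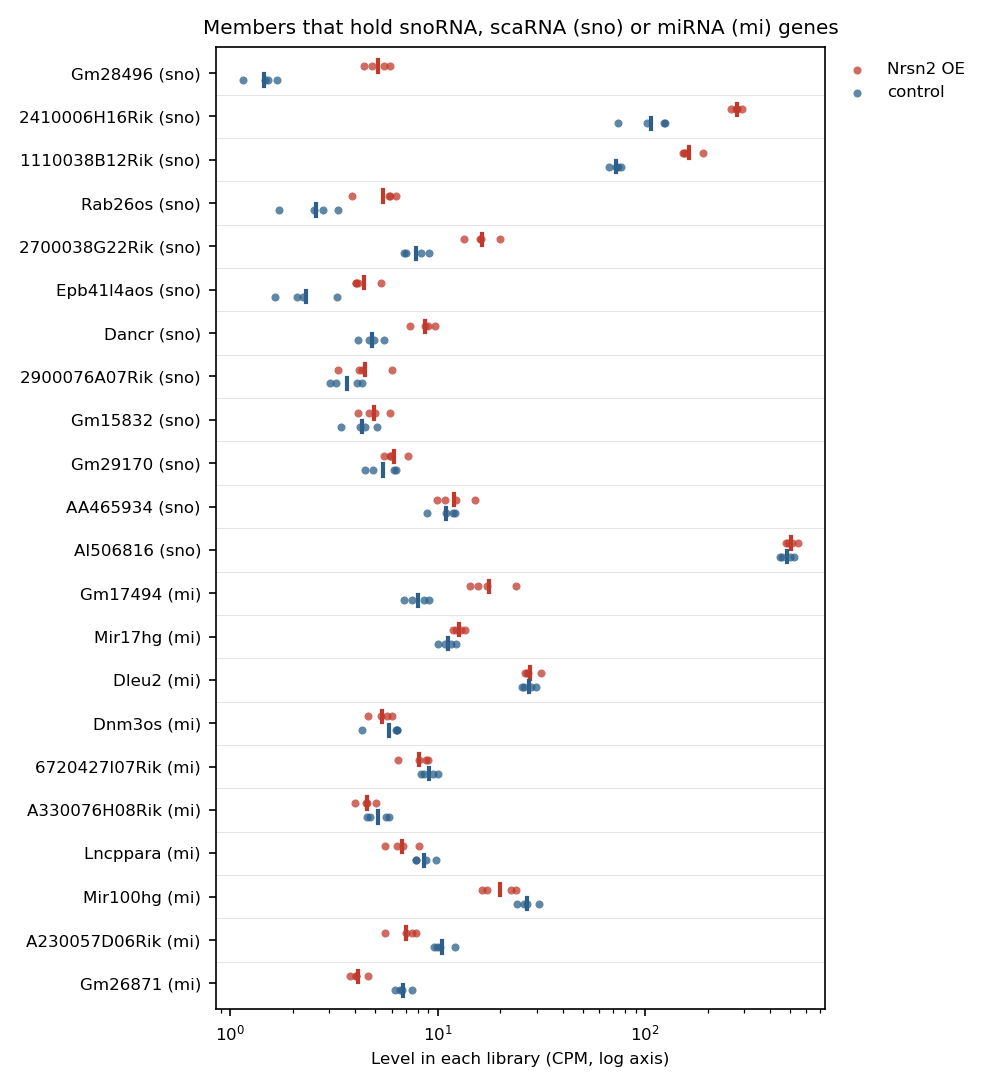
Level in each library (CPM, log axis) of the members that hold a snoRNA or scaRNA gene (sno) or a miRNA gene (mi), with Nrsn2 OE libraries in red above control libraries in blue and bars at the group means. 2900076A07Rik holds both kinds and is drawn among the first. The upper 7 rows lie to the right in Nrsn2 OE with no overlap, and the lower 4 rows of the miRNA carriers lie to the left, Lncppara with overlap.

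Carriers of miRNAs, also grouped after their values had been seen, numbered 11, of which 1 rose and 4 fell (18.6% and 16.8% over all genes tested), with a median log2 fold change of -0.18. Without the first Nrsn2 OE library 3 of them fell. Gm26871 (chromosome 3, 118223973 to 118323671, plus strand) spans Mir137, whose product is rich in brain and known for its role in neuronal differentiation. It had 4.02, 4.59, 3.79 and 4.02 CPM in Nrsn2 OE libraries, against 7.53, 6.57, 6.74 and 6.22 CPM in control libraries. All Nrsn2 OE libraries were below all control libraries, at a log2 fold change of -0.71 ± 0.13 (adjusted p = 0.000452).

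A230057D06Rik (chromosome 7, 61354267 to 61578438, minus strand) spans the miR-344 cluster printed above. It had 5.58, 7.87, 7.01 and 7.49 CPM in Nrsn2 OE libraries, against 9.95, 9.63, 10.2 and 12 CPM in control libraries (log2 fold change -0.58 ± 0.13, adjusted p = 0.00161). Its neighbour A330076H08Rik, which holds a further miR-344 copy, had -0.19 ± 0.14 (adjusted p = 0.306). Mir100hg (chromosome 9, 41238373 to 41628290, plus strand) spans miR-100, let-7a-2 and miR-125b-1, a set known from differentiating cells. It had 23.9, 22.6, 17.4 and 16.3 CPM in Nrsn2 OE libraries, against 26.0, 24.0, 26.8 and 30.9 CPM in control libraries (-0.43 ± 0.12, adjusted p = 0.00785). Here the highest Nrsn2 OE library came close to the lowest control library.

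Lncppara, with the let-7b and let-7c arms, had 5.56 to 8.14 CPM in Nrsn2 OE libraries and 7.81 to 9.79 CPM in control libraries. The groups overlapped and the call was marginal (log2 fold change -0.35 ± 0.13, adjusted p = 0.0487). The carrier of let-7a-1, let-7d and let-7f-1, 6720427I07Rik, had -0.18 ± 0.12 and was not called, while Mir100hg, which holds let-7a-2, was called lower. Gm17494, with Mir760, was the carrier that rose, with 23.9, 15.6, 17.2 and 14.3 CPM in Nrsn2 OE libraries, against 6.89, 9.05, 8.54 and 7.54 CPM in control libraries (1.15 ± 0.14, adjusted p = 1.34e-05). It overlaps the genes Gclm and Dnttip2, whose log2 fold changes were -0.07 and 0.21. Mir17hg, carrier of the miR-17 to miR-92a cluster known for promoting proliferation, had 11.9 to 13.6 CPM in Nrsn2 OE libraries and 10.0 to 12.3 CPM in control libraries (0.18 ± 0.10, adjusted p = 0.161).

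Members with described functions include some of the most abundant. Malat1, the RNA of nuclear speckles and the most abundant member, had 1208, 1180, 1148 and 1167 CPM in Nrsn2 OE libraries, against 1093, 1140, 1072 and 1442 CPM in control libraries. The fourth control library was the highest of all 8, and the log2 fold change was -0.01 ± 0.08 (adjusted p = 0.915). Neat1, the scaffold of paraspeckles, had 76.0, 84.0, 68.2 and 67.0 CPM in Nrsn2 OE libraries, against 53.6, 53.3, 47.8 and 74.4 CPM in control libraries. The fourth control library lay within the Nrsn2 OE range, and the call (0.36 ± 0.11, adjusted p = 0.0146) was lost without control library 2, control library 3 or Nrsn2 OE library 2, at adjusted p = 0.0506, 0.0593 and 0.0579. Norad, a cytoplasmic RNA that binds Pumilio proteins, had 0.10 ± 0.06 (adjusted p = 0.201).

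Pvt1, the neighbour of Myc, had 36.8, 32.2, 33.7 and 33.6 CPM in Nrsn2 OE libraries, against 28.3, 29.5, 26.8 and 29.5 CPM in control libraries (0.26 ± 0.08, adjusted p = 0.0139). Without control library 3 its adjusted p was 0.0502. Of 4 RNAs listed as nuclear, with the cytoplasmic Norad among them, Neat1 and Pvt1 rose and Malat1 and Norad were not called (median 0.18), with 0 falls at an unadjusted p under 0.05 in edgeR and in DESeq2. The 5 lncRNAs of the p53 and DNA damage list held the same 2 rises, with Dleu2, Lncpint and Norad not called (median 0.10) and 0 falls by the same 2 measures. Of 8 growth and proliferation lncRNAs, Dancr, Epb41l4aos and Pvt1 rose, Oip5os1 fell and 4 were not called (median 0.11). Of 5 miRNA carriers listed by name, Pvt1 rose and Mir100hg fell (median 0.03). Beside these list counts, 18.6% of all genes tested were higher and 16.8% lower. Lists this short allow a description only.

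Lower levels were found for Oip5os1 and Peg13 in the list of 4 neural lncRNAs (0 higher in edgeR, at an unadjusted p under 0.05 and in DESeq2, 2 lower, median -0.23). Over all genes tested 18.6% were higher and 16.8% lower, and a list of 4 allows a description only. Oip5os1, known as Cyrano, triggers decay of miR-7 in mouse brain. It had 61.0, 71.8, 71.3 and 74.5 CPM in Nrsn2 OE libraries, against 103, 89.2, 95.1 and 97.8 CPM in control libraries, with no overlap (log2 fold change -0.47 ± 0.07, adjusted p = 8.80e-05). Peg13, an imprinted RNA made within an intron of Trappc9, had 14.3, 17.3, 15.8 and 16 CPM in Nrsn2 OE libraries, against 20.1, 21.2, 19 and 25.4 CPM in control libraries (-0.44 ± 0.10, adjusted p = 0.00265), while Trappc9 stood at 0.00. Crnde, at -0.01 ± 0.11, and Cerox1, at -0.01 ± 0.15, were not called.

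Hand2os1 lies opposite the sympathoadrenal transcription factor gene Hand2. It had 158, 204, 194 and 187 CPM in Nrsn2 OE libraries, against 235, 230, 225 and 197 CPM in control libraries. The groups overlapped, and both genes were called lower, Hand2os1 at -0.26 ± 0.08 (adjusted p = 0.0148) and Hand2 at -0.23 (adjusted p = 0.0484). With GC and length offsets Hand2os1 stood at -0.15 and lost its call (adjusted p = 0.149). The ratio of Hand2os1 to Hand2 differed between the groups by -0.04 on the log2 scale (two-sided exact permutation p = 0.800). Among 13 members with antisense-type names, 4 rose and 5 fell (18.6% and 16.8% over all genes tested, median of the 13 -0.05). Rab10os rose by 0.37 ± 0.09 with 25.9 to 26.7 CPM in Nrsn2 OE libraries and 18.3 to 23.7 CPM in control libraries. Srrm4os, opposite the neuronal splicing factor gene Srrm4, fell by 0.87 ± 0.21. Rab10os and Srrm4os were chosen after their values were seen.

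**Figure D4:**
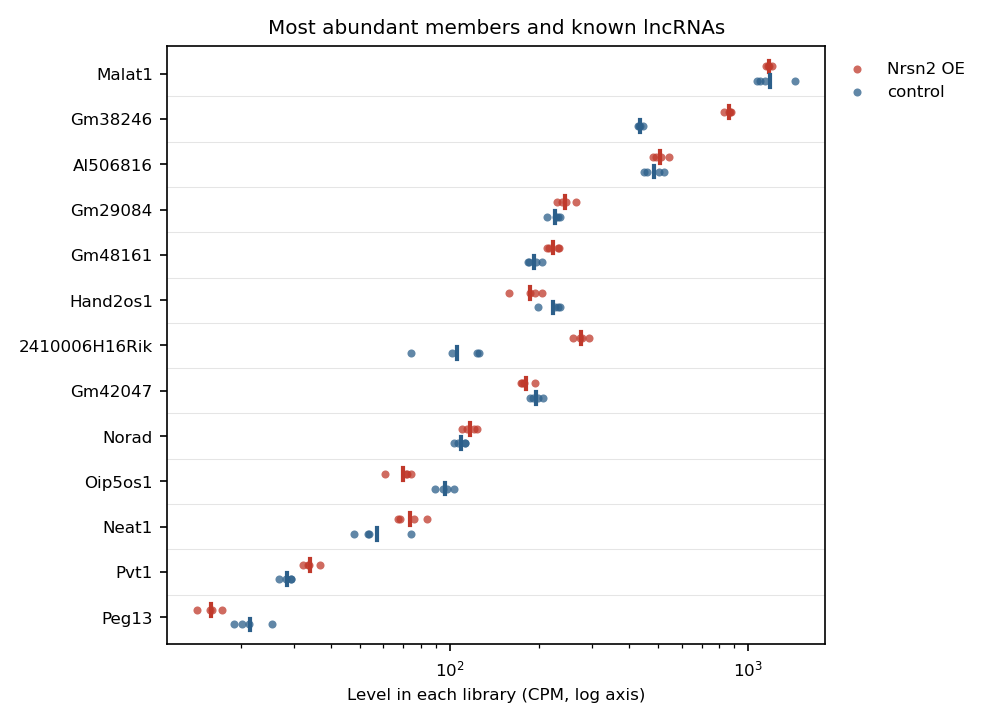
Level in each library (CPM, log axis) of the 8 most abundant members and of 5 further lncRNAs with described functions, ordered by mean level, with Nrsn2 OE libraries in red above control libraries in blue and bars at the group means. Gm38246 and 2410006H16Rik lie apart between the groups, and Malat1 and AI506816 overlap.

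Several abundant members share sequence with other genes, so that their levels depend on how reads of near copies were assigned. In 32 members at least 50% of the 31-base runs also occur in another gene. Of these 7 rose and 2 fell (18.6% and 16.8% over all genes tested). Gm38246 (chromosome 3, 51011081 to 51012591, plus strand) has 66.9% of its runs elsewhere, with 28.4% of its runs found in Gm30948 and 10.3% in Gm49116. Gm38246 had 879, 861, 872 and 834 CPM in Nrsn2 OE libraries, against 434, 444, 432 and 428 CPM in control libraries, with little spread within each group (log2 fold change 0.99 ± 0.06, adjusted p = 4.83e-09). Gm49116 had 179, 171, 165 and 152 CPM in Nrsn2 OE libraries, against 71.2, 80.7, 77.8 and 82.8 CPM in control libraries (1.09 ± 0.07, adjusted p = 6.14e-09). Gm30948 had 150, 137, 145 and 128 CPM in Nrsn2 OE libraries, against 91.9, 85.1, 88.4 and 91.6 CPM in control libraries (0.65 ± 0.06, adjusted p = 1.35e-06). These 3 genes lie on 3 chromosomes and are reported as uncertain.

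A second group, Gm29084 and Gm48161, has 97.6% and 91.3% of its runs in other genes, with Noct the leading one for Gm29084. Gm29084 had a log2 fold change of 0.11 ± 0.06 (adjusted p = 0.178) and Gm48161 one of 0.21 ± 0.06 (adjusted p = 0.0119). Gm42047, with 72.3% of its runs elsewhere, had -0.12 ± 0.06 (adjusted p = 0.141). Per kilobase of annotated exon, Gm38246 (429 CPM per kb over all libraries), 2410006H16Rik (414) and Malat1 (169) stood highest among the 317, and only the second has no run shared with another gene.

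As a share of library counts, the 317 lncRNAs held 0.796%, 0.778%, 0.749% and 0.735% in Nrsn2 OE libraries, against 0.649%, 0.664%, 0.635% and 0.687% in control libraries. Without Malat1, Gm38246, 2410006H16Rik, 1110038B12Rik and Gm49116, a set named after their values were seen, the remaining 312 held 0.476% to 0.517% in Nrsn2 OE libraries and 0.461% to 0.480% in control libraries. The groups then overlapped. No test was made of these shares.

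Members were also placed by their position relative to expressed protein-coding genes. The class with the largest share of rises, 47.2% against 18.6% of all genes tested, was the divergent one, lncRNAs on the opposite strand that begin within 5000 bases of a coding gene's start and point away from it. Of 36 divergent members 17 rose and 6 fell (median log2 fold change 0.24), against 19 and 24 of 97 antisense overlapping, 7 and 10 of 35 sense overlapping, 4 and 1 of 19 downstream and 21 and 33 of 130 other members. The classes were not tested against each other. Members of every class had passed the count rule, which the background of all genes tested did not face. A divergent member low in control, such as Gm10827 or AW011738, could enter through its Nrsn2 OE reads. One low in Nrsn2 OE could enter through its control reads. The rule thus favours both rises and falls in the divergent shares, which are a description. Whether the share holds with a minimum of reads in each group was not tested. Without the first Nrsn2 OE library 16 divergent members rose and 6 fell. Divergent lncRNAs arise where polymerase starts in both directions, and many of them are normally terminated early and degraded by the nuclear exosome.

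Of the 17 divergent lncRNAs that rose, 5 had a coding partner that rose, 1 a partner that fell and 11 a partner that was not called, a share of called partners near the 36.8% of all protein-coding genes. B230317F23Rik, 137 bases from the chloride transporter gene Clcn3, had a log2 fold change of 1.29 ± 0.19 beside -0.05 for Clcn3. 2810013P06Rik, 189 bases from the chromatin regulator gene Ankrd11, had 1.11 ± 0.13 beside 0.04. BC030343, 53 bases from Zfp316, had 0.95 ± 0.18 beside 0.20. These and the pairs of the next paragraph were chosen after their values were seen.

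In other divergent pairs both genes rose. Gm21781 had 29.0, 28.0, 28.3 and 31.6 CPM in Nrsn2 OE libraries, against 13.5, 13, 12.8 and 13.3 CPM in control libraries (1.15 ± 0.08, adjusted p = 3.00e-08). Its partner Zbtb2, a zinc finger transcription factor gene 3479 bases away, had 1.07 (adjusted p = 1.68e-07). AW011738 had 3.51, 4.50, 3.84 and 3.47 CPM in Nrsn2 OE libraries, against 1.88, 1.96, 1.94 and 2.30 CPM in control libraries (0.92 ± 0.17, adjusted p = 0.000501). It lies 2474 bases from Isg15, which encodes an interferon-induced ubiquitin-like protein and had 11.2, 7.87, 7.33 and 8.70 CPM in Nrsn2 OE libraries, against 0.765, 1.15, 0.935 and 2.15 CPM in control libraries (2.75 ± 0.23, adjusted p = 2.02e-07). 2810001G20Rik and Cox10, a heme synthesis gene 16 bases away, had 0.50 and 0.51.

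The letters GAAANNGAAA, the core of the element bound by interferon-induced transcription factors, were searched on both strands of the 300-base RefSeq start windows. They were found in 4 of the 156 members with a window (Gm15834, Gm29260, Gm4117 and Rab10os) and in 3.99% of all genes. Gm29260 and Rab10os rose, and Gm4117 fell.

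Across pairs, log2 fold changes of lncRNA and coding partner were loosely related. Pearson's r and Spearman's rho were 0.26 and 0.26 over 32 divergent pairs, 0.20 and 0.18 over 90 antisense pairs, 0.04 and 0.03 over 32 sense pairs and 0.36 and 0.38 over 19 downstream pairs. Pairs share the 8 libraries, and overlapping pairs can share reads. The log2 ratio of lncRNA to partner was read for 19 named members with a tested partner. Of these members, 15 were named for their difference or by p-value within a list, in the same libraries, so their ratios are a description: that of Cep83os to Cep83 was lower in Nrsn2 OE libraries by 0.70 on the log2 scale, and that of BC051077 to Vsig10 was higher by 2.43. The other 4 were named for their level alone. The ratio of 2410006H16Rik to Trpv2 was higher in Nrsn2 OE libraries by 1.41 and that of Gm48161 to Agtr1a by 0.89, each at a two-sided exact permutation p = 0.0286, the smallest that 70 arrangements allow, and at 0.0571 adjusted over the 4 pairs. The ratio of Gm42047 to Klhdc4 differed by -0.29 (exact permutation p = 0.0571), and Hand2os1 with Hand2 is given above.

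**Figure D5:**
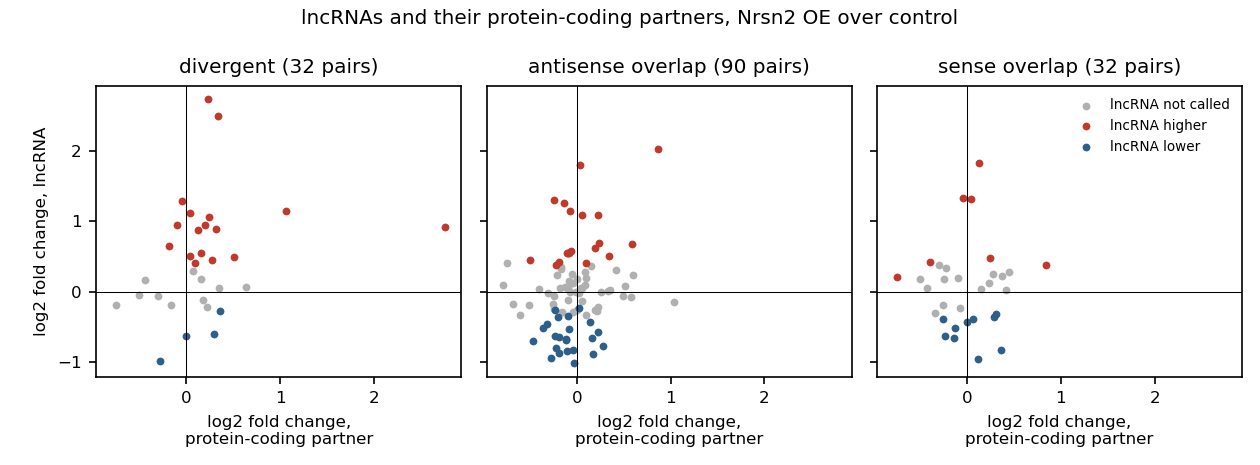
Each point is a lncRNA and its protein-coding partner, with the partner's log2 fold change across the page and the lncRNA's up the page, both Nrsn2 OE over control, for divergent, antisense overlapping and sense overlapping pairs. The far right point of the divergent panel is AW011738 with Isg15 at 2.75.

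Genes for proteins that make, mark or remove such RNAs were read from lists. The counts of these lists stand beside 18.6% higher and 16.8% lower over all genes tested. Of 16 genes of the nuclear exosome and its adaptors, 5 rose and 0 fell in edgeR, with 0 falls at an unadjusted p under 0.05 and in DESeq2. They were led by the nucleases Exosc10 (log2 fold change 0.57 ± 0.06) and Dis3 (0.53 ± 0.07) and the adaptor Zfc3h1 (0.40 ± 0.06). Integrator and Restrictor, which end short transcripts, were listed together with the nuclear cap-binding complex and its partner Srrt. Of these 12 genes 6 rose, and Ncbp1 of the cap-binding complex fell. The rises were Srrt (0.58 ± 0.08), Ncbp2 and Ncbp3 of the cap-binding part, and Ints12 (0.52 ± 0.07), Ints3 (0.42 ± 0.07) and Zc3h4 of the rest. Of 14 paraspeckle and speckle protein genes, 4 rose and 0 fell by the same measures, led by Cpsf6 (0.36 ± 0.07), Hnrnph3 (0.32 ± 0.07) and Sfpq (0.29 ± 0.08).

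Among 10 genes of the Microprocessor and miRNA maturation, 4 rose and 2 fell, with Tarbp2 at 0.44 ± 0.11, Dicer1 at 0.21 ± 0.06 and Prkra at -0.36 ± 0.10. Among 13 genes of m6A RNA methylation, 7 rose and 2 fell, with the reader Ythdf2 at 0.35 ± 0.07, the writer subunit Virma at 0.32 ± 0.07 and Zc3h13 at -0.33 ± 0.07. The medians of the 5 lists were 0.05 to 0.23, against -0.000879 over all genes tested.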

How the data were processed

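Reads of 8 polyA libraries came from a TruSeq V2 kit, which is unstranded, per the labels' protocols. Per the submitters' processing notes, DESeq2 1.36.0, HTSeq 2.01, TopHat2 2.1.1 and cutadapt 2.10 were used with GRCm39. Neither the annotation release nor the strand setting is stated in those sources. Per the file headers, the deposited table holds whole-number read counts per gene, a signal (counts divided by size factors), the authors' log2 fold changes and standard errors, Wald score, p-value and adjusted p-value. Of 55414 rows, 6250 had no counts and were left out.

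The counts were tested with edgeR 4.0.16 (R 4.3.3, quasi-likelihood F test, TMM, filterByExpr at a minimum count of 10, Benjamini-Hochberg adjustment over 15187 genes, no covariate). The test was also run on simulated counts, drawn with the same spread for every gene, unlike real data. There 73.7% of 1.5-fold and 92.7% of 2-fold changes were recovered, and 6.36% of calls were false. Log2 ratios of pairs used a prior count of 2 and two-sided exact permutation tests. Positions are GRCm39; GENCODE M21 and RefSeq GRCm38.p6 were used by gene identifier or symbol only, for exon length, GC content, shared 31-base runs and sequences. Library totals were 15347255 to 21395096 counts. Replicate numbers do not pair libraries (same-number correlations of -0.10 to 0.06).

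Members, lists and rules were chosen with earlier results of these data known. Named genes were the 10 largest rises and falls whose mean was 1 CPM or more and whose groups did not overlap. The 8 most abundant members, 3 per list by smallest p, and partners were named too. Apart from genes at the edge of the count rule, other members given with values were chosen after their values were seen. Alternatives were RLE normalization, DESeq2 1.42.0, no low-count filter, replicate blocks, each library left out, other count rules and overlap limits, and counts plus 1 for ratios. Offsets for GC content and length, and removal of members sharing 50% of their 31-base runs, were added after seeing the data. A further marker gene is not reported here.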

Additional observations from a re-analysis of the deposited data

Results flagged for a closer look

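In 78 checks of a named member within 1 group, the highest or lowest of 4 libraries stood apart 4 times. Chance gives about 1 in 20 checks, so this number is about what chance alone gives. BC051077 had 24.2 CPM in Nrsn2 OE library 1, against 12.7 to 14.5 CPM in the other 3. Gm15564 had 10.8 CPM in the same library, against 4.64 to 5.34 CPM in the other 3. Epb41l4aos had 5.30 CPM there, against 4.05 to 4.13 CPM. Gm45184 had 2.71 CPM in control library 2, while the remaining control libraries held 0.942 to 1.22 CPM. Every one of these genes was called higher in Nrsn2 OE cells when any single library was left out.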

How the results depend on the processing

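The counts of members stayed within 1.5 times their size, and their median log2 fold change lay on either side of 0, between -0.0093 and 0.0154, under RLE normalization, DESeq2, no low-count filter, each left-out library, GC and length offsets, at least 200 reads in each group and removal of members sharing 50% of their 31-base runs. Counts that follow the definition moved: 118 rose and 114 fell among 597 members at a sum of 200 or more reads, and 45 rose and 46 fell among 176 at 800 or more. With only overlaps of 50% of the span counted as shared, 59 unshared members rose and 43 fell. With the replicate block 66 members rose and 70 fell, but the samples share only a number. Leaving out each library gave 59 to 68 rises, 56 to 75 falls, a median of -0.00703 to 0.0154, 29 to 36 unshared rises, 19 to 28 unshared falls and 11 to 13 pair ratios past the threshold, against 14 of 19 with all libraries (most of these members were named for their difference). With GC and length offsets 76 rose and 60 fell. Of 142 called members, 115 to 141 kept their call and direction in any 1 refit. Of 507 refits of named members, 498 kept direction and call, 6 lost the call, 3 gained it and 0 reversed: Neat1 and Pvt1 lost it without single libraries, Hand2os1 (adjusted p = 0.149) and Gm16185 (0.0727) with GC and length offsets, under which Mir17hg, Norad and Gm42047 gained it. The cause was not tested. Members near the count rule had few reads per library, which limits small differences.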
